A study of Arabidopsis thaliana with 6 samples.

Results

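The chloroplast genome of Arabidopsis thaliana gave 118 genes with a level above 0 in at least 1 of 6 stem libraries. They were chosen by their identifiers, which begin with ATCG, out of 133 such rows, and the other 15 rows were listed at 0 in every library. Wild-type plants of the Columbia background and plants of the hdt1 T-DNA mutant were compared, with 3 libraries of each. HDT1 encodes a plant-specific histone deacetylase of the HD2 type. By the labels, all plants were grown at 20 °C with 16 h of light and 8 h of dark, and mature stems were taken 35 days after flowering, without flowers or leaves. The study's methods give another temperature and day length. At sampling, siliques had formed and the stems were turning yellow. Of the 2 mutant lines described, the sequenced one is not named. The libraries carry the numbers 1, 2 and 4 in both genotypes, and the columns name the genotype but not the single sample. The series text speaks of no replicates and the study's methods of triplicates, so the spread between libraries may be technical.

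The chloroplast genome is a small circular genome, kept from a cyanobacterial ancestor, that codes for part of the photosynthetic complexes and for part of its own gene expression machinery. Its genes are transcribed by a bacterial-type polymerase whose core subunits are encoded in the chloroplast, and by phage-type polymerases encoded in the nucleus. Many genes are transcribed together as operons and the long transcripts are then processed. Mature chloroplast mRNAs mostly lack a stable poly(A) tail, and short tails mark them for decay.

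The values are FPKM, fragments per kilobase of gene, scaled to a common library total. The deposited table does not pair the ATCG identifiers with gene names, and neither does the reference annotation, except for 6 of them. Names were therefore given by the length that the FPKM steps of each gene imply, matched exactly to the RefSeq plastid annotation (TAIR10.1). Of the 118 genes, 60 were named by length alone, and all 60 lay along the genome in the order of their identifiers. A further 42 were named by length together with that order, and 16 kept only their identifier. All 6 identifiers that notes in the annotation pair with a gene were named here, ATCG01310 (rpl2) by length and order. The names match those notes except for ATCG00430. It was named ndhK by length, where the note gives photosystem II reaction center protein G. The plastid genome of this build has 154478 bp, with an inverted repeat of 26264 bp present as 2 copies.

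Short reading frames gave several of the results below, so their coding strands are shown from 5′ to 3′, with the first and the last codon in capitals. psbM and rpl32 had the highest levels, petN is a neighbour of psbM with a far lower level, and psbI and psaJ are short genes with higher levels in hdt1 in libraries 2 and 4. psbM (ATCG00220) lies on the minus strand at positions 28707 to 28811 and encodes a small subunit of photosystem II, and petN (ATCG00210) lies on the plus strand at 28089 to 28178 and encodes a small subunit of the cytochrome b6f complex. rpl32 (ATCG01020) lies on the plus strand at 113449 to 113607 and encodes a ribosomal protein. psbI (ATCG00080) at 7583 to 7693 and psaJ (ATCG00630) at 66929 to 67063, both on the plus strand, encode small subunits of photosystems II and I. Each sequence is the whole single coding exon and comes from RefSeq.
psbM: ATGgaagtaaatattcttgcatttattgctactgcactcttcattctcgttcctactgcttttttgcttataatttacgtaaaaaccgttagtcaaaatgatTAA
rpl32: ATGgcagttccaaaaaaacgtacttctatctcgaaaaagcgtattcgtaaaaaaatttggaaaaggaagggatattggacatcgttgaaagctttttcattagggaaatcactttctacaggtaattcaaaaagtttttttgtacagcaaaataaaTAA
petN: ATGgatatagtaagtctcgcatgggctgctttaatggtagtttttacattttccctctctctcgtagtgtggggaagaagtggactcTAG
psbI: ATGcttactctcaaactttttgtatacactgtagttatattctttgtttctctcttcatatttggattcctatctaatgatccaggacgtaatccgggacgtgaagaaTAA
psaJ: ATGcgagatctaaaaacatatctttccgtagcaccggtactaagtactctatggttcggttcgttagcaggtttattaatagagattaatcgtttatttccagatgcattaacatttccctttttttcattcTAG

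The summed level of the chloroplast genes was far higher in library 1 than in libraries 2 and 4 of the same genotype. It was 11988, 210 and 182 FPKM in libraries 1, 2 and 4 of the wild type, and 11363, 273 and 308 FPKM in libraries 1, 2 and 4 of hdt1. Library 1 was thus 61.1 times the mean of the other two in the wild type and 39.1 times in hdt1. With psbM left out these values were 34.8 and 21.3 times. In fragments, 135219 and 158232 fell on chloroplast genes in library 1, which is 0.318% and 0.350% of the total behind the FPKM scale. The other 4 libraries held 2621 to 4334 chloroplast fragments, at most 0.0102% of their totals. These totals lay between 40505052 and 45230842 in all 6 libraries, so library size did not follow the difference.

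The mitochondrial genes did not share this pattern. Their 146 rows summed to 344, 450 and 552 FPKM in libraries 1, 2 and 4 of the wild type and to 358, 712 and 604 FPKM in those of hdt1. Library 1 therefore had the lowest sum of the 3 in each genotype, at 0.686 and 0.544 times the mean of the other two. The median over the 118 mitochondrial rows above 0 did not follow the sums. It was 0.55, 0.50 and 0.46 FPKM in libraries 1, 2 and 4 of the wild type and 0.59, 0.73 and 0.59 FPKM in those of hdt1. In their sums, nuclear genes for partners of the chloroplast-encoded complexes lay between the chloroplast and the mitochondrial pattern. The 29 listed genes, which encode the small subunit of Rubisco and the nuclear subunits of the photosystems, the cytochrome b6f complex and the ATP synthase, summed to 22658, 10739 and 10572 FPKM in the wild type. They summed to 19721, 8437 and 8781 FPKM in hdt1. In bulk tissue, fewer green cells and less chloroplast RNA per cell cannot be told apart. The labels do not say how library 1 was prepared, and the cause of the difference was not tested.

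**Figure D1:**
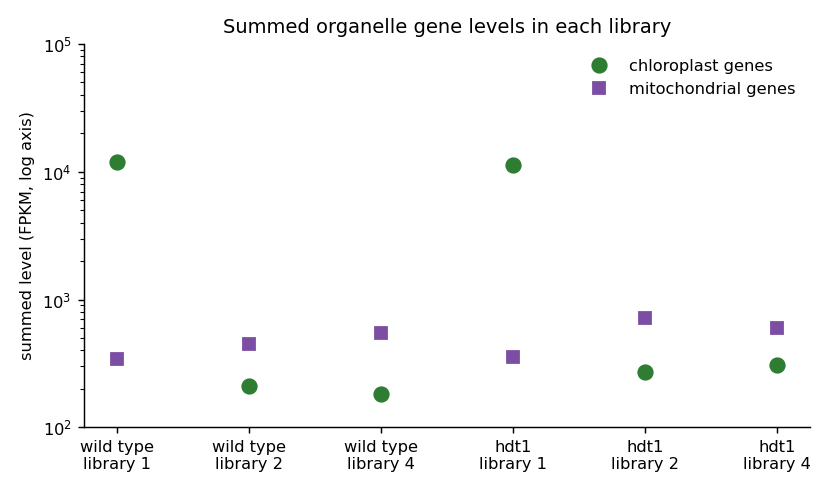
Summed FPKM of the 133 chloroplast rows (circles) and of the 146 mitochondrial rows (squares) in each of the 6 libraries, on a log axis. The chloroplast sum is 11988 and 11363 FPKM in library 1 of the wild type and of hdt1 and 182 to 308 FPKM elsewhere, whereas the mitochondrial sum stays between 344 and 712 FPKM.

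Library 1 also stood apart in the rest of the transcriptome, and the labels do not say how it differs. Over all genes kept for the test, log2 levels of libraries 2 and 4 correlated at Pearson's r = 0.995 in each genotype, and those of library 1 and library 2 at 0.900 in the wild type and 0.870 in hdt1. Libraries 2 and 4 still differed by more than counting noise, with a mean chi-square on 1 degree of freedom of 6.92 in the wild type and 7.48 in hdt1 over genes with at least 20 fragments. HDT1 itself had 53.3, 65.3 and 56.9 FPKM in libraries 1, 2 and 4 of the wild type and 4.97, 19.8 and 20.5 FPKM in those of hdt1. Its log2 fold change of -2.10 ± 0.51 (SE, n = 3 per genotype) had an adjusted p of 0.269 by limma. The fibre and xylem markers SND1, NST1, CESA4, CESA7 and CESA8 were all detected and summed to 48.1, 18.7 and 19.8 FPKM in libraries 1, 2 and 4 of the wild type and to 107, 60.7 and 56.5 FPKM in those of hdt1. The epidermal markers ATML1, CER6 and PDF1 summed to 192, 78.8 and 84.9 FPKM in the wild type and to 173, 40.2 and 38.2 FPKM in hdt1, and the phloem markers SUC2 and APL to 121, 97.9 and 99.2 FPKM and to 160, 167 and 166 FPKM. The floral markers AP3, PI and SEP3 summed to at most 1.9 FPKM. The seed storage genes CRA1, CRU3 and SESA4 were listed at 0 in 4 libraries, but summed to 128 and 124 FPKM in libraries 2 and 4 of the wild type. The guard cell markers MYB60, FAMA and KAT1 summed to 39.2, 17.9 and 17.2 FPKM in libraries 1, 2 and 4 of the wild type and to 44.4, 10.2 and 11.0 FPKM in those of hdt1. Fibre and xylem, epidermal and guard cell sums were thus all highest in library 1 of each genotype. CER6 gave 184 FPKM of the epidermal sum in library 1 of the wild type. PDF1 went the other way there, with 0.83, 5.92 and 5.33 FPKM in libraries 1, 2 and 4 of the wild type. The part of these cell types in the chloroplast levels was not tested.

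The excess in library 1 was uneven between chloroplast genes. Of the 118 genes, 104 were higher in both library 1 samples than in all 4 other libraries. Among the 50 kept for testing, which reached 1 FPKM in 3 or more libraries, 49 were so, compared with 32.7% of all 17906 genes kept. In 20 of the 50, both library 1 samples were over 10 times the highest of the other 4 libraries. Only 33 genes in all, 0.184% of those kept, met this second criterion, and the other 13 were not chloroplast genes. The groups of libraries compared here were set by the library number after the difference had been seen, so these counts are a description.

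The 67 chloroplast genes with at least 20 fragments in libraries 2 and 4 together had library 1 over libraries 2 and 4 ratios with a median of 14.2 (both genotypes pooled). Of these, 5 genes were over 100-fold, 37 were between 10- and 100-fold, and 25 were below 10-fold. The largest pooled ratios belonged to atpB (ATCG00480, 378-fold) and atpE (ATCG00470, 199-fold), which encode the beta and epsilon subunits of the ATP synthase and overlap at their ends. psbM followed at 171-fold, the threonine tRNA gene ATCG00390 at 149-fold, and the long form of ycf1 (ATCG01130), part of the protein import machinery, at 113-fold. The genotypes differed in this order. atpB was at 418-fold in the wild type and 343-fold in hdt1, atpE at 380- and 131-fold, psbM at 162- and 182-fold, ATCG00390 at 189- and 117-fold, and ycf1 at 85.7- and 174-fold. At the other end of the pooled ratios, rpoB, the beta subunit gene of the chloroplast RNA polymerase, was 1.62-fold (1.69 in the wild type, 1.58 in hdt1) and atpI, a membrane subunit gene of the ATP synthase, 2.24-fold. rps2 and rps4, for proteins of the small ribosomal subunit, were 2.53- and 2.95-fold, where rps2 was 4.89-fold in the wild type and 1.42-fold in hdt1, and clpP, which encodes a protease subunit, 3.12-fold. trnQ, a glutamine tRNA gene, was the single gene with a lower level in library 1, at 0.15-fold, and it was listed at 0 in library 1 of the wild type. Genes of one complex were spread over this range, with the 6 ATP synthase genes running from 2.24- to 378-fold and the 3 measured polymerase genes from 1.62- to 85.9-fold. The ratio showed almost no rank relation with gene properties over the 62 named genes: Spearman's rho was -0.04 with A+T content, 0.04 with the longest run of A, 0.07 with the longest run of A in the next 200 bases and 0.05 with length. Between the log2 ratio of a gene and that of the next measured gene along the genome it was 0.33, over 61 pairs that overlap in their genes.

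**Figure D2:**
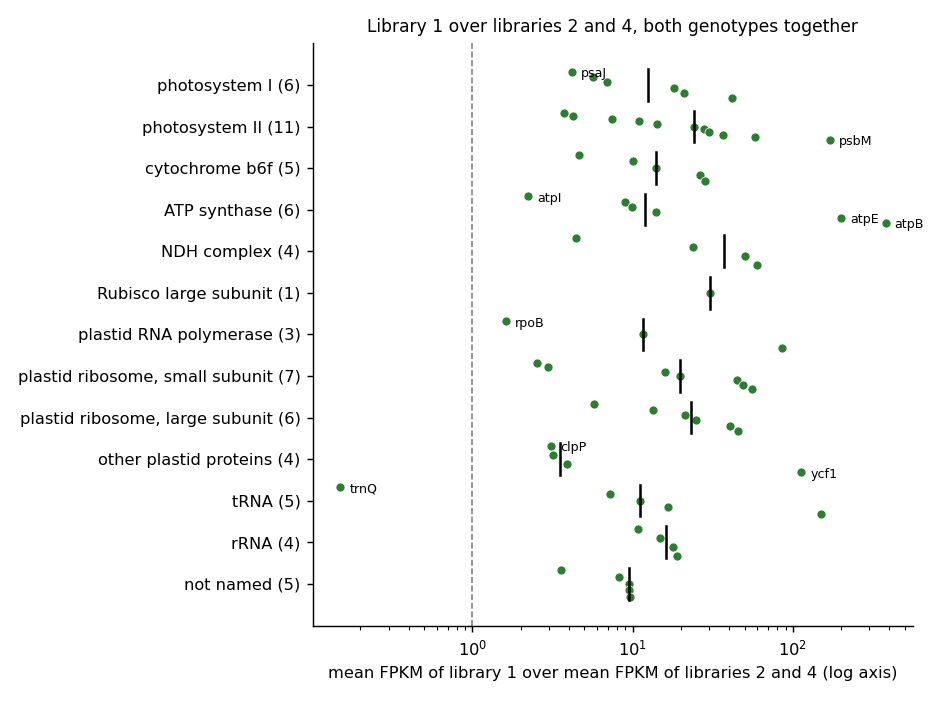
Mean FPKM of both library 1 samples over the mean FPKM of the 4 other libraries, on a log axis, for 67 chloroplast genes ordered by functional group, with the number of genes in brackets. Black bars are group medians and the dashed line marks equal levels; atpB, atpE and psbM lie beyond 100-fold, rpoB is at 1.62-fold, and trnQ alone lies below 1.

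The highest level in every library belonged to either psbM or rpl32. psbM had 6568, 45.0 and 36.2 FPKM in libraries 1, 2 and 4 of the wild type, and 5844, 28.7 and 35.4 FPKM in those of hdt1. It alone made up 54.8% and 51.4% of the chloroplast sum in library 1 of the 2 genotypes, from 29325 and 27754 fragments. rpl32 had 1630, 36.0 and 32.9 FPKM in wild-type stems and 1437, 89.6 and 89.2 FPKM in hdt1 stems. It was the highest chloroplast gene of hdt1 libraries 2 and 4, where it gave 32.8% and 28.9% of the sum. By contrast petN, beside psbM on the other strand, had 29.0, 4.10 and 3.84 FPKM in wild-type stems and 42.7, 3.40 and 2.88 FPKM in hdt1 stems. Both psbM and rpl32 are short, at 105 and 159 bases, and FPKM divides by length, so that single fragments weigh heavily in them.

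**Figure D3:**
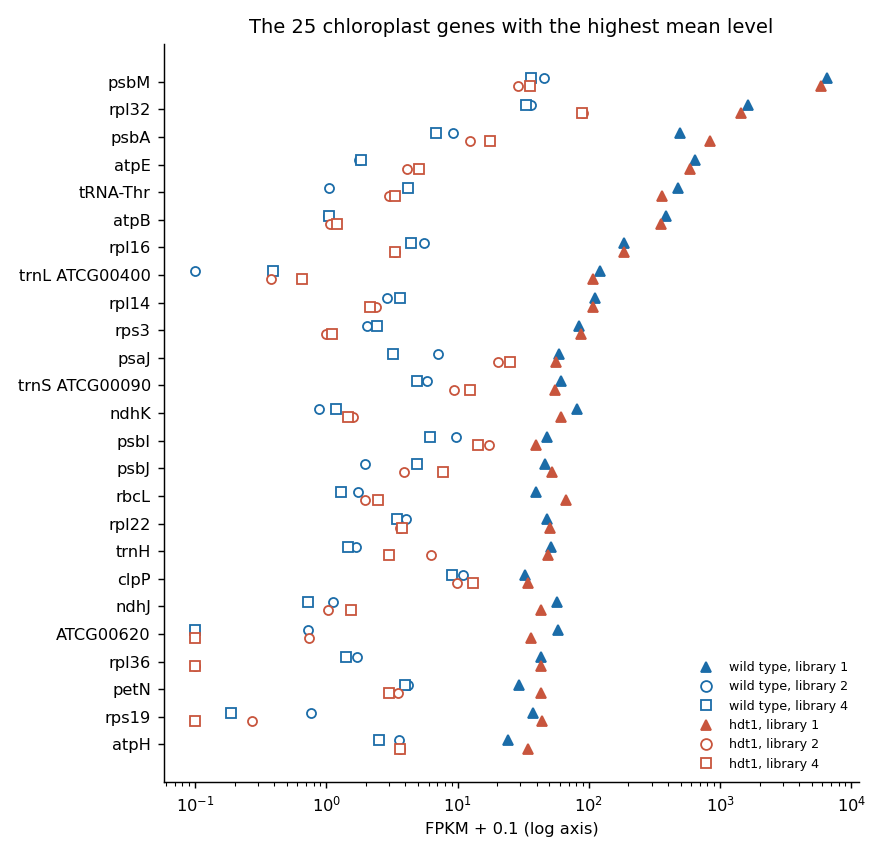
FPKM + 0.1 on a log axis for the 25 chloroplast genes with the highest mean level, with a symbol for each library (blue, wild type; red, hdt1; filled triangles, library 1; open circles, library 2; open squares, library 4). Library 1 is the highest of its genotype for all 25 genes, from psbM at 6568 and 5844 FPKM downwards, and the distance to libraries 2 and 4 is narrowest for clpP, psaJ and psbI.

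Across the 118 genes the order of levels was nearly the same in the library 1 samples of both genotypes (Spearman's rho 0.98). It was less alike between libraries 2 and 4 of the wild type (0.82) or of hdt1 (0.79), and between libraries 1 and 2 of the wild type (0.74) or of hdt1 (0.73). Libraries 2 and 4 rest on few fragments per gene, which limits the precision of their order.

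The genotypes were compared with limma on log2(FPKM + 1) over all 6 libraries and all 17906 genes kept, with Benjamini-Hochberg adjustment. A fold change on this scale understates the change of low genes. None of the 50 chloroplast genes kept passed an adjusted p of 0.05 in either direction, and no gene of the whole table did (0.0% higher and 0.0% lower). At an unadjusted p of 0.05 the chloroplast genes also gave 0 higher and 0 lower, compared with 7.78% and 5.96% of all genes. For no chloroplast gene did the 3 hdt1 libraries lie wholly above or wholly below the 3 wild-type libraries, against 8.50% and 10.9% of all genes. The median log2 fold change was 0.10 over the 50 genes and -0.08 over all genes kept. The gap between library 1 and the others set the spread of most members: in psbM the log2 fold change was -0.28 ± 2.79 (SE). The median of the 50 genes moved to 1.19 without library 1 of the wild type and to -1.0 without library 1 of hdt1, so the comparison of 3 against 3 says little about these genes.

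With the replicate number as a block the members gave 7 higher and 1 lower at an unadjusted p of 0.05 (all genes: 12.4% and 12.6%), and none after limma's adjustment. With a term for library 1 against libraries 2 and 4, 9 members were higher and 1 lower at an unadjusted p of 0.05 (all genes: 16.4% and 20.8%). None of them passed the adjusted threshold in that fit, where 3.82% of all genes were higher and 2.52% lower. The 9 were psbA, psaI, psaJ and psbB of the photosystems, rbcL, cemA, rps14, rpl32 and trnV, and the 1 lower was rpl36. The lowest adjusted p among the 50 chloroplast genes in this fit belonged to psaI, at 0.0501 by limma, with a log2 fold change of 1.16 ± 0.23 (SE). In libraries 2 and 4, psaI rested on 1 and 0 fragments in the wild type and on 9 and 11 in hdt1. When the fragments themselves were tested with voom and the same term, an alternative chosen after the data had been seen, psbA and rbcL were the 2 members higher in hdt1 and 0 members were lower (all genes: 6.12% and 3.62%). Their log2 fold changes were 0.83 and 0.71, with adjusted p of 0.0493 and 0.0479 by limma's voom. For psaI the same voom fit gave an adjusted p of 0.208. The member share of 4.0% was not above that background.

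The smallest p-values without any batch term were those of psbB and psaJ, which limma did not call. psbB encodes the CP47 antenna protein of photosystem II and had 9.79, 0.74 and 1.73 FPKM in libraries 1, 2 and 4 of the wild type and 15.0, 4.05 and 5.11 FPKM in those of hdt1. Each hdt1 library was above the wild-type library of its number, but the groups overlapped. The log2 fold change was 1.09 ± 0.77 (SE, adjusted p = 0.548, limma). psaJ had 59.6, 7.0 and 3.11 FPKM in wild-type stems and 56.0, 20.2 and 25.1 FPKM in hdt1 stems. It was thus slightly lower in library 1 of hdt1 and at 4.48 times the wild-type level in libraries 2 and 4, with a log2 fold change of 1.33 ± 1.0 (SE, adjusted p = 0.571, limma). In the lower direction the smallest p belonged to ATCG00065, which has no name here. It had 4.95, 3.03 and 2.17 FPKM in wild-type stems and 5.82, 0 and 0.83 FPKM in hdt1 stems (log2 fold change -0.87 ± 0.70, SE; adjusted p = 0.594, limma). Among the higher genes, rpoB came next after psaJ. It had 1.17, 0.70 and 0.68 FPKM in libraries 1, 2 and 4 of the wild type and 1.57, 0.91 and 1.08 FPKM in those of hdt1 (log2 fold change 0.24 ± 0.21, SE, adjusted p = 0.632, limma). trnV (log2 fold change 1.33) and cemA (0.56) followed among the higher genes, and rpl36 (-0.86), psbK (-0.44), trnQ (-0.31) and trnK (-0.34) among the lower ones.

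Because library 1 was deep for these genes in both genotypes, its 2 samples are described beside each other, with 1 sample per genotype and thus no test. Intervals are exact at 95% and cover counting error only. Of the 71 genes with at least 50 fragments in both samples, 32 had an hdt1 to wild-type ratio whose interval lay above 1 and 11 had one below 1, which is 45.1% and 15.5% of them. Of all 17433 genes at this depth, 29.6% had an interval above 1 and 36.2% below, so such intervals are common where only counting error is covered. The ratios ran from 0.618 to 2.54 with a median of 1.16, and the median over all genes kept was 0.976. The complexes are given in turn.

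The genes of the photosystems and Rubisco were mostly higher in library 1 of hdt1. psbA, which encodes the D1 protein of the photosystem II reaction centre, had 491 FPKM in wild-type and 831 FPKM in hdt1 stems, a ratio of 1.69 (1.66 to 1.72). rbcL, the large subunit of Rubisco, had 39.6 and 67.0 FPKM, also a ratio of 1.69 (1.61 to 1.78). psaA and psaB, the reaction centre proteins of photosystem I, had ratios of 2.11 (1.89 to 2.36) and 2.04 (1.84 to 2.27). In photosystem II, 8 of 12 genes had intervals above 1, up to psbH at 2.54 (1.88 to 3.47), and 1 had an interval below 1. That exception was psbM, at 0.89 (0.88 to 0.90). In the cytochrome b6f complex petB was at 2.12 (1.85 to 2.43) and petA at 1.0 (0.80 to 1.23). Within the operon of psbE, psbF, psbL and psbJ, which encode cytochrome b559 and small subunits of photosystem II, psbE had 11.0 and 16.0 FPKM in library 1 of the wild type and of hdt1, psbL 15.7 and 23.4, and psbJ 46.5 and 52.7. psbF was listed at 0 in library 1 of the wild type and had 0.18 FPKM in that of hdt1. psbF is short and lies close to its neighbours, and how fragments that overlap more than 1 gene were counted is not stated, so its value is not read as a low level.

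The ribosomal RNAs were higher too in library 1 of hdt1. The 16S rRNA gene ATCG00920 had a ratio of 1.59 (1.45 to 1.74) and the 23S rRNA gene ATCG00950 a ratio of 2.02 (1.82 to 2.25). The copies of both in the other repeat had ratios of 1.74 and 2.07. Fragments of the copies cannot be told apart, so these ratios are no separate observations. All 4 rows are nevertheless counted singly among the 71 genes above and the 58 genes below. ATCG00920 and ATCG00950 had 12.3 and 4.36 FPKM in library 1 of the wild type. The genes for ribosomal proteins stayed near 1. The 8 genes of the large subunit had a median of 1.0 with 0 intervals above 1 and 1 below, which was rpl32 at 0.88 (0.86 to 0.91). The 8 of the small subunit had a median of 1.07, with 2 intervals above 1 and 0 below.

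The ATP synthase genes were split. atpA, atpF, atpH and atpI, which lie in one operon, had ratios of 1.42, 1.62, 1.43 and 1.28, all with intervals above 1. atpB and atpE, which lie in another, both had 0.91 (0.89 to 0.92 and 0.89 to 0.94). The genes of the NDH complex, which feeds electrons back around photosystem I, had ratios on both sides of 1. Of the 6 with at least 50 fragments in both samples, 3 had intervals below 1 and 0 had an interval above 1. The 3 were ndhF at 0.62 (0.50 to 0.77), ndhK at 0.75 (0.71 to 0.80) and ndhJ at 0.75 (0.69 to 0.82). ndhA, ndhH and ndhC were at 1.26, 1.03 and 0.89, with intervals that span 1. ndhE, ndhG and ndhI had fewer than 50 fragments in library 1 of the wild type. Their ratios were above 1, with intervals that also span 1. Of the chloroplast RNA polymerase, rpoB and rpoC1 had ratios of 1.34 (1.09 to 1.65) and 1.62 (1.15 to 2.31), and rpoA was at 1.06 (0.96 to 1.18). rpoC2, with 38 and 32 fragments, was at 0.79 (0.48 to 1.30), an interval that spans 1.

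**Figure D4:**
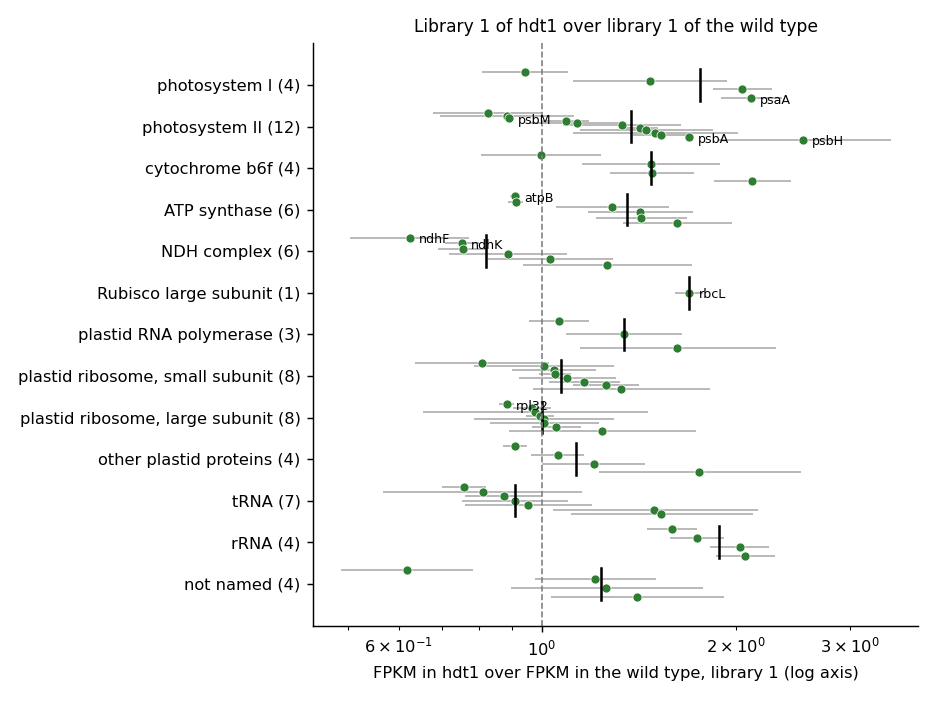
Ratio of FPKM in library 1 of hdt1 to library 1 of the wild type, on a log axis, for 71 chloroplast genes with at least 50 fragments in both, by functional group with the number of genes in brackets. Grey lines are exact 95% intervals for counting error only, black bars are group medians and the dashed line marks equal levels; photosystem I, rRNA and rbcL lie mostly to the right of it, and ndhF, ndhJ and ndhK to the left.

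In libraries 2 and 4 the pattern was another one. The 59 genes with at least 10 fragments per genotype had ratios of hdt1 to wild-type means from 0.24 to 4.48 with a median of 1.01, and the median over all genes kept was 0.920. The ratio was over 2 for 10 genes and under 0.5 for 6. Of the 50 genes kept, 17 (34.0%) were higher in both hdt1 libraries than in both wild-type libraries and 11 (22.0%) were lower, where 34.3% and 48.9% of all genes did so. The share that was higher was thus near that of all genes, and the share that was lower was smaller. A limma fit to these 4 libraries alone, also added after the data had been seen, called 12 members higher and 8 lower, while 27.4% and 38.6% of all genes were called. It takes near-alike libraries as independent. psaJ at 4.48 and psbB at 3.71 had the largest ratios. rpl32 was at 2.60, atpE at 2.65, psaA at 2.75, and psbA at 1.87. psbI, a small subunit of photosystem II, had 9.56 and 6.01 FPKM in wild-type stems and 17.2 and 14.2 FPKM in hdt1 stems, although library 1 was at 48.1 and 39.6 FPKM.

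Several genes of the large ribosomal operon were lower in libraries 2 and 4 of hdt1. rps3 had 1.93 and 2.33 FPKM in the wild type against 0.89 and 1.0 FPKM in hdt1, and rpl16 had 5.43 and 4.30 against 3.23 and 3.23 FPKM. rpl14 had 2.81 and 3.55 against 2.29 and 2.04 FPKM, and rpl36 had 1.62 and 1.30 FPKM against 0 in both. The 23S rRNA genes had ratios of 0.24, from 1.42 and 0.61 FPKM in the wild type to 0.20 and 0.28 FPKM in hdt1 for ATCG01180. atpA was at 0.31, with 0.39 and 0.70 FPKM against 0.09 and 0.25 FPKM.

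Over the 58 genes with a ratio in both sets, which share no library, the direction was the same in 29. psbA, rbcL, psaA, psaB and psbB were higher in hdt1 in library 1 and also in libraries 2 and 4. The 23S rRNA genes, atpA and petD were higher in library 1 and lower in libraries 2 and 4, and rpl32, atpE and psaJ went the other way. The 16S rRNA genes were higher in library 1 and had ratios of 0.83 and 0.76 in libraries 2 and 4, where the genotypes overlapped. The sums also differed between the sets, since hdt1 had 0.948 times the wild-type sum in library 1 and 1.48 times in libraries 2 and 4. Without psbM the 2 ratios were 1.02 and 1.66. The sum in libraries 2 and 4 leaned on few short genes. There rpl32 had 36.0 and 32.9 FPKM in the wild type and 89.6 and 89.2 FPKM in hdt1. psaJ had 7.0 and 3.11 FPKM against 20.2 and 25.1 FPKM. The median ratio of single genes there was 1.01, with 10 genes over 2 and 6 under 0.5.

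**Figure D5:**
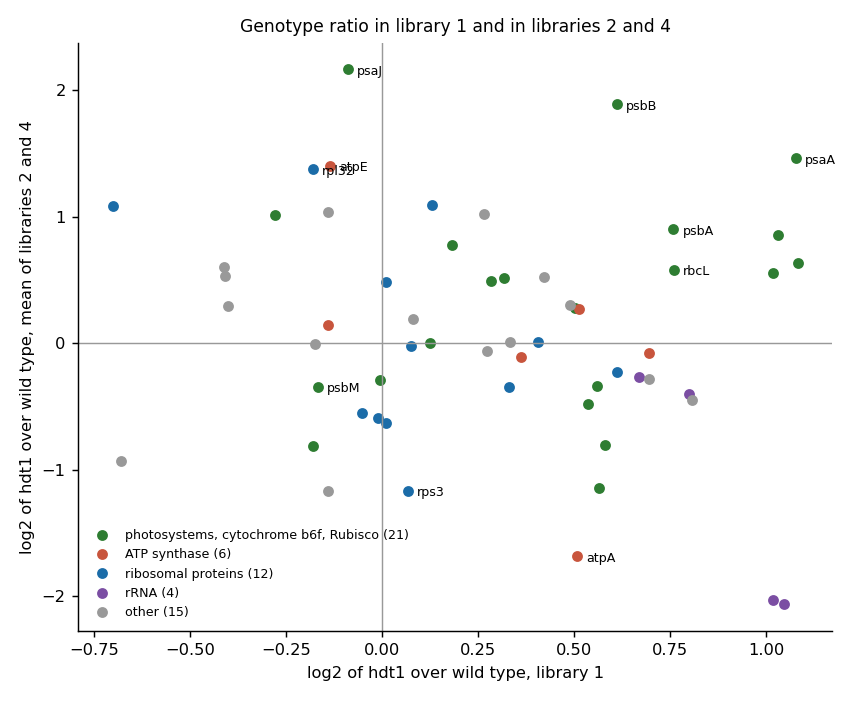
Each point is 1 of 58 chloroplast genes, with the log2 ratio of hdt1 to wild type in library 1 on the horizontal axis and in the means of libraries 2 and 4 on the vertical axis, coloured by functional group with the number of genes in brackets. The direction is the same on both axes for 29 of the 58, psbA, rbcL, psaA and psbB are at the upper right, and 2 copies of the 23S rRNA gene and atpA are at the lower right.

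Transfer RNA genes were named in 19 cases. Rows without a name include some of 72 or 74 bases, lengths that named tRNA genes also have. Of these, ATCG00620 had 58.5, 0.62 and 0 FPKM in libraries 1, 2 and 4 of the wild type. It had 36.2, 0.64 and 0 FPKM in those of hdt1. ATCG00390, named as a threonine tRNA by length and order, had 474, 0.95 and 4.06 FPKM in libraries 1, 2 and 4 of the wild type and 358, 2.90 and 3.23 FPKM in those of hdt1. The next gene by identifier, the leucine tRNA ATCG00400, had 122, 0 and 0.29 FPKM in wild-type stems and 107, 0.28 and 0.55 FPKM in hdt1 stems. The phenylalanine tRNA gene that follows, ATCG00410, was at 2.90 and 8.78 FPKM in library 1 of the wild type and of hdt1. Most other tRNA genes held a few fragments only, and trnA was above 0 in 1 library. Genes of under 100 bases are shorter than a usual fragment, so their levels are uncertain.

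Genes in the inverted repeat are present as identical copies, and their fragments cannot be told apart. In library 1 of the wild type the 16S rRNA gene had 783 fragments on one copy and 648 on the other, and the 23S rRNA gene 521 and 532. rpl2, a ribosomal protein gene, had 66 and 52. Of the 15 rows listed at 0 in all libraries, 14 carry identifiers that lie between those of the repeat genes. Near-identical copies elsewhere were few. Among 102 named genes, a stretch of at least 98% identity outside the plastid genome covered at least 90% of 3 tRNA genes. It covered 10 to 90% of 6 other genes and none or under 10% of the remaining 93. Of the 6, atpI had 17.2% covered, and both 23S rRNA genes had 18.1% covered by mitochondrial sequence. Its part in the 23S levels was not tested.

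Nuclear genes that serve chloroplast transcription and RNA decay were tested in the same limma fit. The 20 genes of the transcription machinery, which include the sigma factors SIG1 to SIG6, the phage-type polymerases and the proteins bound to the chloroplast polymerase, gave 0 calls in either direction after adjustment. At an unadjusted p of 0.05, 2 were lower (PTAC2 and PTAC14) and 0 were higher (all genes: 5.96% and 7.78%). PTAC2 had 11.4, 16.8 and 18.1 FPKM in libraries 1, 2 and 4 of the wild type and 10.3, 8.09 and 7.15 FPKM in those of hdt1 (log2 fold change -0.78 ± 0.23, SE). The hdt1 values lay below those of the wild type without overlap, as they did for 10.9% of all genes kept. PTAC14 had a log2 fold change of -0.73 ± 0.24 (SE). Their median log2 fold change was -0.42, beside -0.08 over all genes. Taken separately, library 1 gave -0.13 and libraries 2 and 4 gave -0.63, beside -0.03 and -0.11 over all genes kept. The 6 genes for chloroplast RNA decay and stability had a median of -0.52 and 0 calls. RHON1 was the 1 gene lower at an unadjusted p of 0.05 (all genes: 5.96%). RHON1 had 39.7, 39.2 and 36.5 FPKM in wild-type stems and 35.1, 21.4 and 19.6 FPKM in hdt1 stems. The 29 nuclear partners had a median of -0.31 and 0 calls, with 0 at an unadjusted p of 0.05 in either direction. The 6 genes for senescence and chlorophyll breakdown had a median of -0.32 and 0 calls. Their log2 fold changes were -0.76 for NYC1, -0.57 for ORE1, -0.33 for SGR1, -0.30 for PAO, 0.057 for PPH and 0.40 for SAG12. NYC1 had 78.7, 51.1 and 52.6 FPKM in wild-type stems and 72.3, 23.4 and 24.8 FPKM in hdt1 stems. SAG12, a protease gene of senescing tissue, went the other way in libraries 2 and 4. It had 80.8, 32.5 and 28.8 FPKM in wild-type stems and 43.0, 63.3 and 64.8 FPKM in hdt1 stems.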

How the data were processed

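RNA of 3 wild-type and 3 hdt1 stem samples had been sequenced. The authors deposited FPKM values per gene (called RPKM in the study). Tools listed in the submitters' processing notes, without roles, are HTSeq 0.6.1, TopHat2 2.0.12, TopHat and Bowtie2 2.2.3. Genome build and strand setting: not given in the sources used here. Whole fragments were recovered for all 25374 features above 0, within a relative tolerance of 1e-10, as multiples of each gene's FPKM step, which also gave gene lengths.

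Genotypes were compared with limma 3.58.1 (R 4.3.3; moderated, with trend) on log2(FPKM + 1) for genes of at least 1 FPKM in at least 3 libraries, adjusted over all 17906. In simulated data with library 1 apart, limma recovered 15% of genes changed 2-fold, and 91% with a library batch term (17906 genes). The simulated spread came from libraries 2 and 4 alone, and the library 1 shift was the same in both genotypes. In the data this shift differed between genotypes for genes such as atpE, so the 91% can be too high. The members, lists and rules were chosen with earlier results of these data known. Genes named were HDT1, the 10 members of highest mean, the 5 of smallest p per direction, up to 4 per group and all polymerase genes. Other members named were chosen after their values were seen. Deviations from group means correlated at 0.56, 0.53 and 0.46 for libraries of equal number, and at 0.51 and 0.54 between libraries 2 and 4, so numbers 2 and 4 are not told apart. Copies were sought with BLAST+.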

Additional observations from a re-analysis of the deposited data

How the results depend on the processing

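No chloroplast gene was called under pseudocount 0.1, no filter, a mean of at least 5 FPKM, median-ratio, nuclear-sum or quantile scaling, the replicate block (0 higher, 0 lower), the library batch term or leaving out any library. Over all genes, the batch term called 684 higher and 451 lower, voom with that term 1095 and 648, and leaving out 1 library 0 to 1222 higher (most without hdt1 library 1) and 0 to 772 lower. Among members voom with the batch term called 2 higher. Libraries 2 and 4 alone, an added choice that takes near-alike libraries as independent, called 4905 higher and 6904 lower, of them 12 and 8 of the 50 members.

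The median log2 fold change of members ran from -1.0 to 1.19 when 1 library was left out. Single genes also changed sign: atpB -2.48 to 2.55, atpE -1.61 to 3.27, clpP -0.37 to 0.67, psbA -1.11 to 2.73, psbK -1.34 to 0.33, psbM -2.77 to 2.16, rbcL -0.99 to 1.86, rpl14 -1.98 to 1.30, rpl16 -2.13 to 1.35, rpl32 -0.49 to 2.68, rpl36 -2.68 to 0.53, rps3 -2.27 to 1.15, the threonine tRNA ATCG00390 -2.04 to 2.53, trnK -1.31 to 0.56 and trnQ -1.07 to 0.24. Leaving out a library 1 sample leaves library 1 in 1 genotype only. Voom with the batch term turned ATCG00390 to -0.33 and atpB to -0.077, and pseudocount 0.1 turned trnQ to 0.055. The cause was not tested. Depth limits libraries 2 and 4, with 2621 to 4334 chloroplast fragments each.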
